A study of Drosophila melanogaster with 16 samples.

Results

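The Affymetrix DrosGenome1 array has 4911 probe sets whose only gene symbol is a CG number. Of these, 117 passed a signal minimum and a 2-fold limit for being highest in testes with the bgcn mutation alone. These 117 probe sets, 2.38% of the CG-numbered ones, report on 116 genes. Membership was set by the deposited signals themselves: the mean of the bgcn arrays was at least 100, and at least 2 times both the Os+bgcn mean and the wild-type mean. The same thresholds were met by 335 of all 13966 probe sets, or 2.4%. A CG number is the identifier that the fly genome annotation gives to a predicted gene, and such a gene keeps it until it is named. All 117 probe sets matched a gene of the RefSeq annotation by gene identifier, all are annotated as protein coding, and all still carry a CG number there. Neither the array's annotation nor that table states what these genes do, so no role is given for any of them below.

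RNA came from whole dissected testes of adult flies in 3 groups. Os+bgcn testes (6 arrays, 150 testes each) carry the bgcn mutation together with Os, and bgcn testes (5 arrays, 750 testes each) carry the mutation alone. Wild-type testes (5 arrays) came from 150 testes each. The study calls the replicates biological. The sources used here do not give the alleles, the strain, the age in days or the way Os was supplied. A pool of 750 testes and the bgcn mutation without Os cannot be told apart, since only these samples pooled 750.

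In the fly testis, bgcn acts with bam to end the dividing phase of the early male germline, and without it germ cells go on dividing and do not become spermatocytes. Os is an old name of unpaired (upd1), the secreted ligand made by the hub at the tip of the testis that activates the JAK-STAT pathway in the adjoining stem cells. A dissected testis also holds somatic cells, among them cyst cells, pigment cells and the muscle of the sheath, and neighbouring tissue can be carried along.

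The genotypes showed in the signals of upd1 and of spermatid genes. The upd1 probe set gave 396 ± 128 in Os+bgcn (SD, n = 6), 9.6 ± 4.31 in bgcn (SD, n = 5) and 11.6 ± 6.28 in wild type (SD, n = 5). The bgcn probe set gave 84.8 ± 32.7, 67.7 ± 21.3 and 104 ± 34.6 in the same order, with overlapping arrays, and where it lies relative to the mutation was not checked. The summed signal of 14 spermatid genes was 484 to 894 in Os+bgcn, 362 to 1243 in bgcn and 160306 to 188165 in wild type. This bears on the label of the wild-type samples, whose extraction notes speak of bgcn testes. The median signal of all probe sets was 67.0 to 74.5 on Os+bgcn arrays, 67.8 to 74.2 on bgcn arrays and 56.2 to 59.4 on wild-type arrays. In RNA of a whole organ, fewer cells of a type and less RNA per cell cannot be told apart.

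The members took up 0.4 to 0.743% of the summed signal on Os+bgcn arrays, 1.83 to 2.41% on bgcn arrays and 0.444 to 0.502% on wild-type arrays. Their median signal was 61 to 99.6 on Os+bgcn arrays, 243.8 to 367.5 on bgcn arrays and 61 to 72.1 on wild-type arrays. Both orders follow from the rule and are given as description. Over the 117 members the median of the group means was 84.8 in Os+bgcn, 277 in bgcn and 61.6 in wild type, and the bgcn means ran from 104 to 3049. The bgcn mean was 3.24 times the Os+bgcn mean and 4.15 times the wild-type mean for the median member, and 2.94 times the higher of both. It was at least 3 times the higher of both for 56 members and at least 5 times for 20. Signals of different probe sets have no common scale, so the members are compared below across arrays and not with each other.

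Every bgcn array lay above all 11 other arrays for 75 of the 117 members, against 2.84% of all probe sets. The bgcn arrays lay above every Os+bgcn array for 78 members (4.27% of all probe sets) and above every wild-type array for 92 (27.1% of all probe sets). Since the rule asked for a higher bgcn mean, nothing is read from these shares. They show where the remaining 42 members differ: their bgcn mean is at least 2 times both others although at least 1 bgcn array falls within the range of the other groups.

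**Figure D1:**
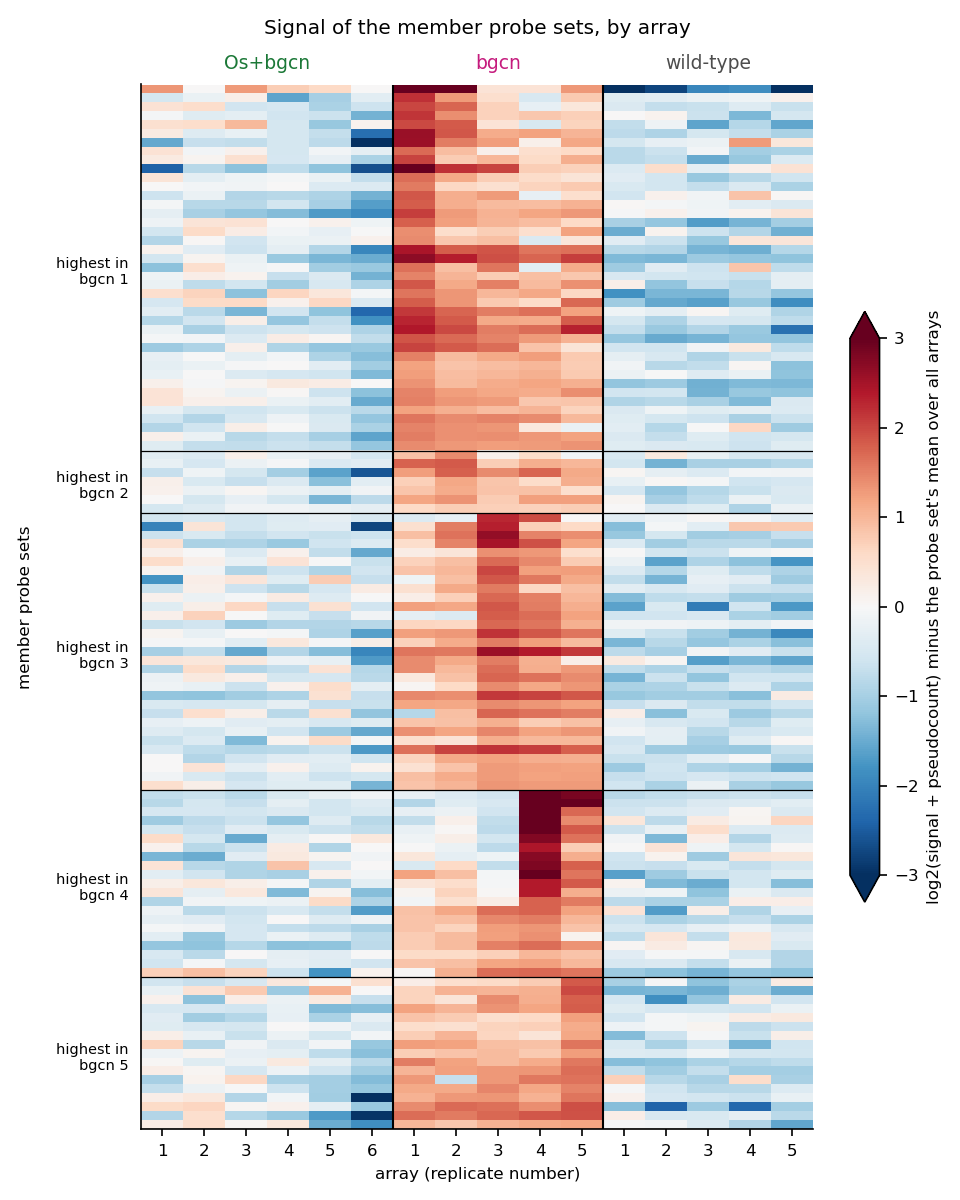
Each row is a member probe set and each column an array, with Os+bgcn left of bgcn and wild type on the right. The colour is log2(signal + 18.8) minus the mean of the probe set over all 16 arrays. Rows are grouped by the bgcn array with the highest signal (41 members for array 1, 7 for array 2, 31 for array 3, 21 for array 4 and 17 for array 5), and the upper rows of the array 4 block are dark in arrays 4 and 5 only.

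The steadiest members had nearly the same signal on all bgcn arrays. For 22 members the highest bgcn array was less than 1.5 times the lowest, and all 22 were among the 75 with no overlap. CG1275, on chromosome arm 3L, gave 355.2 to 629.3 on the Os+bgcn arrays with a median of 486. It gave 2208.3, 2017.3, 1953.9, 1985.7 and 2093.7 on bgcn arrays 1 to 5, and 624.7, 597, 589.4, 524.5 and 628.9 on the wild-type arrays. Every bgcn array was thus above every other array by a wide margin, and the bgcn mean was 4.17 times the Os+bgcn mean and 3.46 times the wild-type mean.

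CG10863, also on 3L, had an Os+bgcn range of 659.3 to 1698.2 and a median of 1323. Its bgcn arrays gave 2649.4, 2885.5, 3108.1, 2768.7 and 3835.1, and its wild-type arrays 1208.4, 1189.7, 1455.8, 1106.5 and 1080. Array 5 was the highest of the bgcn arrays, and the bgcn mean was 2.48 times the Os+bgcn mean and 2.52 times the wild-type mean. The transcript was therefore well above the low end of the scale in all 3 groups.

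CG13285, on 3L, combined steady arrays with a large ratio. It lay between 24.7 and 83.5 in Os+bgcn, with a median of 64.3. It gave 433.5, 571, 626.8, 581.8 and 479.2 in bgcn, against 84.6, 49.5, 48.3, 46.5 and 71.7 in wild type. The bgcn mean was 8.72 times the Os+bgcn mean and 8.96 times the wild-type mean, and no bgcn array came near either group.

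CG5612, on 3R, showed a difference among the bgcn arrays that was small beside its distance from the other groups. Os+bgcn arrays gave 149.2 to 373.3 with a median of 278. The bgcn arrays gave 1952.1, 1917.6, 3853.1, 3379 and 2826.6, so arrays 1 and 2 were lower than arrays 3, 4 and 5, and wild-type arrays gave 358.7, 306.5, 587.1, 494.8 and 393.3. The bgcn mean, 2786 ± 858 (SD, n = 5), was 10.3 times the Os+bgcn mean and 6.51 times the wild-type mean.

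CG8369, CG13315 and CG17549 had strong signals on all bgcn arrays, clear of both other groups. CG8369 on 3R averaged 429 ± 90.8 in Os+bgcn (SD, n = 6), 2771 ± 716 in bgcn and 297 ± 104 in wild type (SD, n = 5 each). CG13315 on 3L averaged 429.6 ± 208 in Os+bgcn, 2372 ± 824 in bgcn and 451 ± 56.7 in wild type, with the same numbers of arrays. CG17549 on 2L averaged 683 ± 213, 2123 ± 370 and 437.5 ± 52.5 in the same order of groups. In CG8369 and CG13315 array 1 was the highest bgcn array, and in CG17549 array 5 was.

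Other members were near the low end of the scale outside bgcn. The pooled 25th percentile of all signals was 18.8, and a ratio against a mean near that value depends on the background correction of the array as well as on the transcript. CG15422, on 2L, gave 8.9 to 63 in Os+bgcn with a median of 25.7. Its bgcn arrays gave 477.3, 374.7, 275.5, 241.1 and 305.6, and its wild-type arrays 11.9, 10.8, 17.5, 15.5 and 14.6. All 5 bgcn arrays were far above all others, and the bgcn mean was 11 times the Os+bgcn mean and 23.8 times the wild-type mean.

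CG5160, on 2L, gave 6.2 to 59.8 in Os+bgcn with a median of 10.2. It gave 136.6, 133.1, 230.2, 215 and 191.6 in bgcn, against 7.3, 9, 9.2, 5.2 and 50 in wild type. Single arrays of the other groups, Os+bgcn array 5 and wild-type array 5, stood apart from their group without reaching the bgcn range. CG13386 on 2L averaged 19.7 ± 2.58 in Os+bgcn (SD, n = 6), 176 ± 98.7 in bgcn and 13.6 ± 6.1 in wild type (SD, n = 5 each), with bgcn array 3 at 346.2 and the other bgcn arrays at 91.3 to 163.6. CG4950 on 3L averaged 22.7 ± 19.6, 164.5 ± 91.8 and 14.5 ± 6.08 in that order of groups, and its lowest bgcn array, at 64.3, was close to its highest Os+bgcn array, at 60.5.

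**Figure D2:**
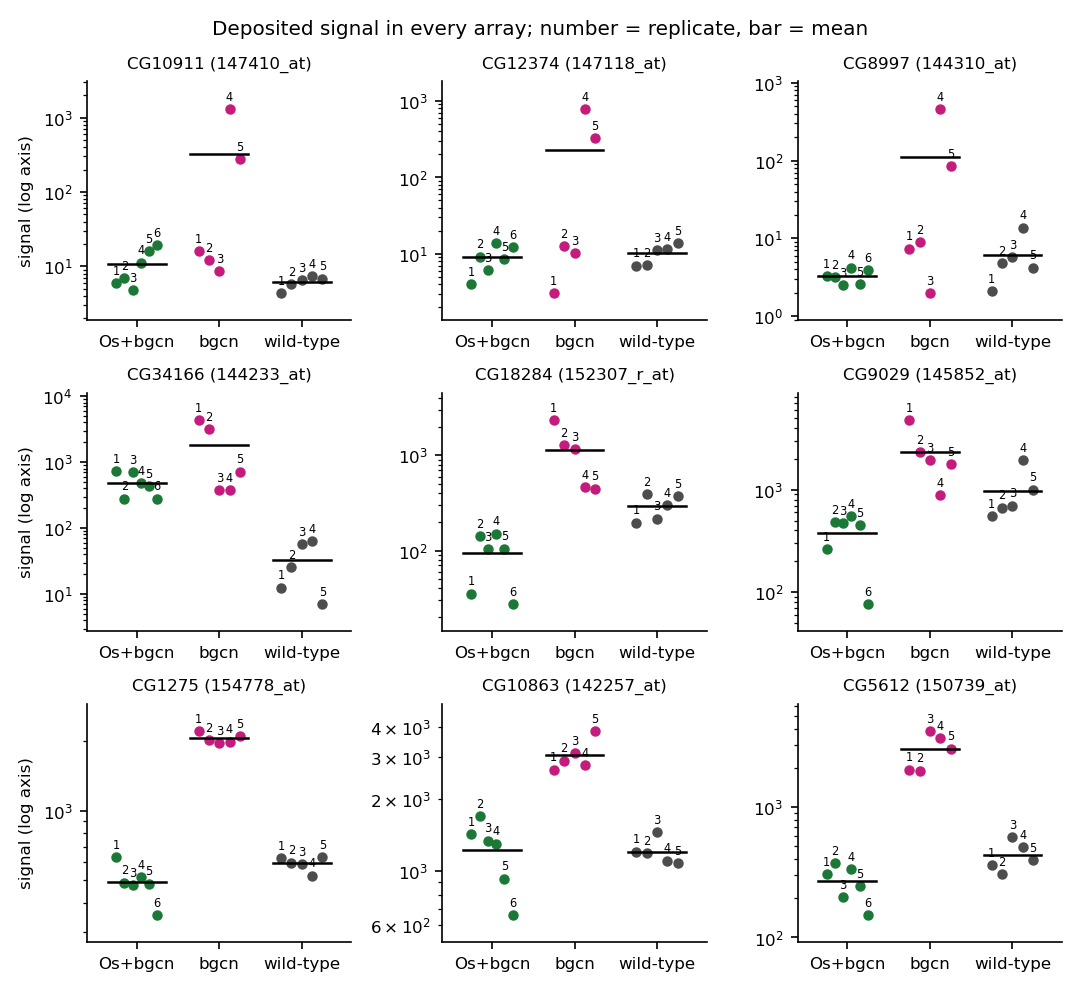
Deposited signal of 9 members on a log axis, with Os+bgcn, bgcn and wild type from left to right; each point is an array, labelled with its replicate number, and the bar is the mean of the group. In the upper row only bgcn arrays 4 and 5 are high. In the middle row arrays 1 and 2 are the 2 highest bgcn arrays, and in CG18284 all 5 lie above the other groups. In the lower row all 5 bgcn arrays lie above the other groups.

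The spread among the bgcn arrays differed widely between members. The highest bgcn array was 2.10 times the lowest for the median member, against 1.74 for the median of all 5784 probe sets with a bgcn mean of at least 100. It was at least 5 times the lowest for 24 members (20.5%), and for 4.81% of those 5784. A probe set with 1 very high array has a raised mean and so meets the thresholds more easily, which the comparison does not correct for. Of these 24 members only CG18284 had no overlap with the other groups.

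**Figure D3:**
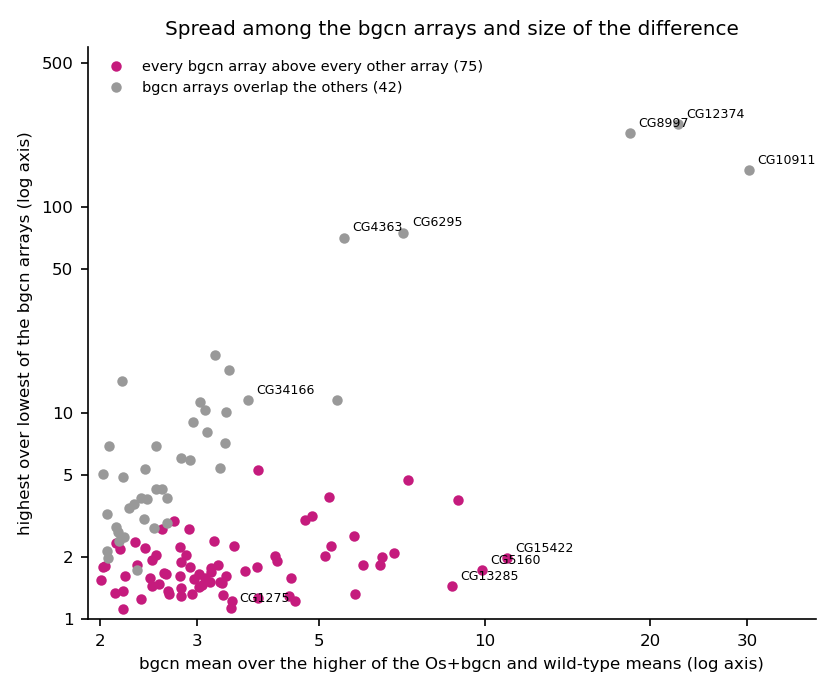
Each point is a member. The horizontal axis is the bgcn mean over the higher of the Os+bgcn and wild-type means, the vertical axis the highest over the lowest of the 5 bgcn arrays, both on log axes. The members with the largest ratios, CG10911 (30.2), CG12374 (22.5) and CG8997 (18.4), are also those whose bgcn arrays differ most, and overlap with the other groups, while the 75 members with no overlap lie in the lower part.

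A group of 12 members was high on bgcn array 4 above all, at 433 to 1735 and at least 3 times the median of the bgcn arrays. They are CG10472, CG10911, CG12374, CG17633, CG18180, CG18404, CG3868, CG4363, CG6295, CG7916, CG7953 and CG8997, a grouping made after the values were seen. In CG10911, on 2R, the Os+bgcn arrays gave 4.8 to 19.3 with a median of 9.1. The bgcn arrays gave 16.1, 12.2, 8.6, 1299.7 and 277.2, and the wild-type arrays 4.4, 5.7, 6.5, 7.3 and 6.8. Arrays 1, 2 and 3 of bgcn were therefore no higher than the highest Os+bgcn array, and the ratio of 30.2 rests on arrays 4 and 5.

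CG12374, on 2R, gave 4 to 13.9 in Os+bgcn with a median of 8.9. Its bgcn arrays gave 3.1, 12.7, 10.2, 784.3 and 328.3, and its wild-type arrays 7, 7.2, 11.3, 11.5 and 13.7. CG8997, on 2L, gave 2.5 to 4.2 in Os+bgcn with a median of 3.25. It gave 7.4, 8.9, 2, 459.2 and 84.5 in bgcn, against 2.1, 4.8, 5.8, 13.7 and 4.2 in wild type. CG18180, on 3L, gave 70.9 to 173.8 in Os+bgcn, 388.5, 310.6, 149.3, 1734.5 and 517.9 in bgcn, and 38.3 to 117.5 in wild type, so that its bgcn arrays were all above wild type.

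None of the 12 was free of overlap, array 5 was the next highest bgcn array in each, and without bgcn array 4 only 2 of them, CG10472 and CG18180, still met the thresholds. The same shape was seen in 33 of the 5784 probe sets with a bgcn mean of at least 100 (0.571%), 30 of which met the thresholds. Besides the 12 members these include 16 probe sets with other symbols, 3 of which read Jon99Cii and Jon99Ciii together. The following 3 were chosen from the 16 after their values were seen. The trypsin gene alphaTry gave 18.1, 17.4, 4.3, 2127.3 and 54.7 on bgcn arrays 1 to 5, the protease gene Jon65Aiv gave 37.5, 34.4, 41, 2568.1 and 577, and the maltase gene Mal-A1 gave 107.9, 68.4, 16.9, 1506.8 and 161.9.

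Arrays 1 and 2 were the 2 highest bgcn arrays for 24 members (20.5%). This share is like the 20.1% of the 5449 other probe sets with a bgcn mean of at least 100. CG34166, on 2L, gave 279 to 722.8 in Os+bgcn with a median of 454. Its bgcn arrays gave 4340.3, 3135.6, 378.1, 374.5 and 717.8, and its wild-type arrays 12.5, 25.5, 57.5, 63.3 and 7.1. Arrays 3, 4 and 5 of bgcn lay within the Os+bgcn range, so the bgcn mean of 3.72 times the Os+bgcn mean rests on arrays 1 and 2, while all bgcn arrays were above all wild-type arrays.

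CG18284, on 2L, gave 27.5 to 150.7 in Os+bgcn with a median of 104. It gave 2354.3, 1291.7, 1159.2, 461.3 and 446.9 in bgcn, against 196.1, 393.8, 215.9, 298.1 and 371.3 in wild type. The bgcn arrays kept above both groups, with arrays 4 and 5 closest to wild type. CG9029, on 2L, gave 76.9 to 547.7 in Os+bgcn with a median of 459. It gave 4774.3, 2332.5, 1927.1, 888.8 and 1784.5 in bgcn, against 547.3, 668.5, 697.1, 1947.6 and 1000.1 in wild type, so wild-type array 4 was above 3 of the bgcn arrays.

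Arrays 3 and 4 were the 2 highest bgcn arrays for 26 members (22.2%, against 20.7% of the 5449 others). CG17572, on 2L and named after its values were seen, was high on these arrays alone. It gave 21.1 to 29.8 in Os+bgcn, 25.8, 30.7, 261.8, 211.1 and 40.4 in bgcn, and 27.4 to 41.7 in wild type. Arrays 4 and 5 were the 2 highest for 21 members (17.9%, against 6.74% of the others), 12 of which are the group described above. The others did not meet the thresholds, which a very high bgcn array makes easier to meet, so nothing is read from the distance between these shares.

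Genes known from other tissues, listed by name, moved with some of these arrays. The summed signal of 20 digestive gut genes was 2496 to 3070 in Os+bgcn. On bgcn arrays 1 to 5 it was 4754, 5675, 6493, 13911 and 7687, against 2977 to 3520 in wild type. Array 4 was the highest, as in the 12 members. Amy-d, an amylase gene, made up much of the sum: without it the bgcn arrays gave 4484, 4152, 3161, 9627 and 5704, against 2840 to 3363 in wild type, so that array 3 lay within the wild-type range. On bgcn array 4, alphaTry gave 2127.3, Jon74E 1310.4 and Jon25Biii 583.5, a large part of the remaining sum. These genes are also among the 16 probe sets picked above by their high array 4. Of the 20, 9 were highest on bgcn array 4 and 6 met the members' thresholds, and 3 had a bgcn mean under 50. LysX, among those 6, was highest on bgcn array 1 instead, at 347.9 against 64.1 on bgcn array 4.

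The summed signal of 20 accessory gland and ejaculatory duct genes was 795 to 5306 in Os+bgcn. On bgcn arrays 1 to 5 it was 29519, 25418, 14378, 5845 and 17026, and on the wild-type arrays 8851, 16109.9, 13860.5, 32833 and 16749.8. The sums in bgcn and wild type thus overlapped, but they rest on a few strong probe sets, and 17 of the 20 genes had a higher mean in bgcn than in wild type. Mst57Da was lower in bgcn at a mean of 3358, against 5722 in wild type, while Acp32CD averaged 287 in bgcn and 74.6 in wild type. Of these 20 genes, 15 were highest on bgcn array 1, and 6 met the members' thresholds. Acp36DE, which encodes a seminal fluid protein, gave 2200.5, 990.9, 642.8, 259.1 and 430.4 on bgcn arrays 1 to 5. Not all genes of the list had this order: Anp (3926.1), EbpIII (1893.4) and PebII were highest on array 5. PebII, which met the thresholds, gave 64.8, 2580.6, 5.5, 75.8 and 4111.9 on bgcn arrays 1 to 5.

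The other lists with members at the thresholds were 12 fat body and antimicrobial genes (4 met them), 17 muscle genes (5), 11 hemocyte genes (4) and 8 cyst cell genes (1, eya). Summed, the fat body genes gave 706 to 1232 in Os+bgcn, 1633 to 2795 in bgcn and 706 to 1065 in wild type. The muscle genes gave 3094 to 4624, 4807 to 6819 and 3093 to 3578 in that order, and the hemocyte genes 1163 to 1805, 2240 to 3336 and 645 to 866. The cyst cell sum was instead highest in Os+bgcn, at 2723 to 3459, against 978 to 1202 in bgcn and 371 to 443 in wild type. With its highest mean in bgcn, eya thus went against the sum of its list. None of the measured genes of the pigment cell, Malpighian tubule, neuron, hub cell, early germline, spermatocyte, spermatid and ribosomal protein lists met the thresholds. MAS5 signals do not reach 0, so no list has a marker at 0. The part of any of these tissues in the members' signals was not tested.

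**Figure D4:**
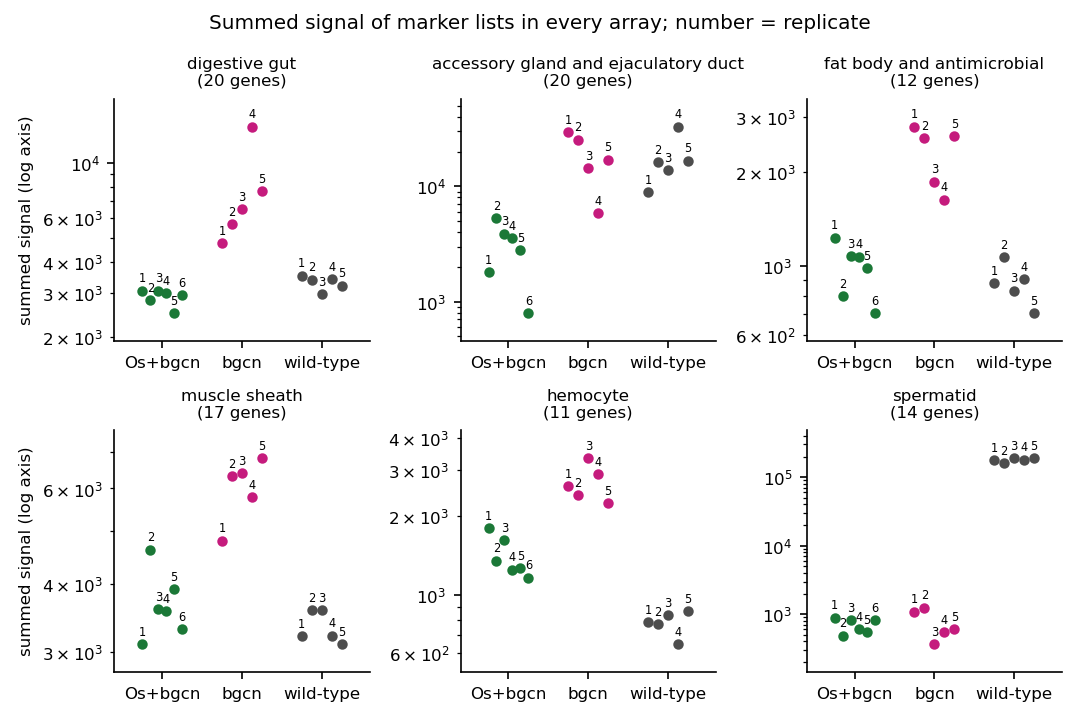
Summed signal of 6 marker lists on a log axis, with Os+bgcn, bgcn and wild type from left to right; each point is an array, labelled with its replicate number. The gut sum is highest on bgcn array 4 (13911), the accessory gland sum is highest on bgcn array 1 among the bgcn arrays (29519) and lowest on bgcn array 4 (5845), and the spermatid sum is 362 to 1243 in bgcn and 160306 to 188165 in wild type.

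Which probe sets are members depends on single bgcn arrays. With 1 bgcn array left out of the mean, between 103 and 112 of the 117 stayed members, fewest without array 1 (103) and array 4 (104). Of the 117, 82 stayed members whichever array was left out, 67 of them with no overlap. Without bgcn arrays 1 and 2 together 98 stayed, and without arrays 4 and 5 together 96.

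The array left out did not enter the choice, but the Os+bgcn and wild-type means did. Of the CG-numbered probe sets chosen without bgcn array 1, 55.2% (64 of 116) reached 100 and 2 times both other means on array 1, as did 3.46% of all CG-numbered probe sets. For array 2 it was 66.1% (78 of 118) against 3.1%, for array 3 it was 65.3% (79 of 121) against 2.79%, for array 4 it was 66.7% (76 of 114) against 2.79%, and for array 5 it was 72.9% (86 of 118) against 3.3%. The Os+bgcn and wild-type means are the same in each choice and each check, so probe sets low in both groups pass each more easily. All CG-numbered probe sets together were not chosen in this way, so nothing is read from the distance between the shares. By this measure 55.2 to 72.9% of the probe sets chosen on 4 bgcn arrays met the thresholds on the remaining array, with the lowest share on array 1. Of the probe sets chosen each time, 103 to 112 were among the members.

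At the edges of the rule, the members with the smallest ratio were CG8788 (2.01), CG11037 (2.02) and CG12926 (2.02), and the first CG-numbered probe sets left out were CG5773, CG32473 and CG15347, each with a ratio of 1.99. By signal, the members with the lowest bgcn mean were CG42807 (104), CG6398 (106) and CG13557 (106), and those just left out were CG32982 (99.2), CG13323 (98.2) and CG13737 (96.7).

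The members lie on all major arms: 32 on 2L, 22 on 2R, 21 on 3L, 26 on 3R and 16 on X. Arm 2L holds 27.4% of the members and 18.2% of all located CG-numbered probe sets, and X holds 13.7% and 18.4%. Of the 116 genes, 20 lie within 10 kb of another member gene, in 8 groups. How often CG-numbered genes in general lie this close together was not counted, so nothing is read from the number. The largest group, on 3R, is CG10513, CG10514, CG11892 and CG11893, 4 of the 6 genes there with a probe set. CG10513 gave 45.9 to 253.4 in Os+bgcn, 1367.2, 870.7, 912.6, 748.1 and 778.4 in bgcn, and 72.1 to 123.9 in wild type. CG11892 gave 5.2 to 23.7 in Os+bgcn, 159, 89.1, 120.8, 75.7 and 109 in bgcn, and 2.9 to 36.6 in wild type. All 4 had no overlap, whereas the bgcn means of CG31104 and CG13658 between them were 40.8 and 19.4, under the signal limit.

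On 2L, CG5160, CG5171 and CG5177 lie together and are the only genes of their group with a probe set. CG5171 averaged 102 ± 45.5 in Os+bgcn (SD, n = 6), 297 ± 75.8 in bgcn and 34.8 ± 26.8 in wild type (SD, n = 5 each). CG5177 averaged 53.1 ± 38, 142 ± 15.6 and 36.6 ± 21.1 in that order. All 3 genes had no overlap, and their ratios to the higher of the other means were 9.91 for CG5160, 2.91 for CG5171 and 2.67 for CG5177.

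The 3 neighbours CG8997, CG7916 and CG7953, also on 2L, all belong to the members high on bgcn array 4, at 459.2, 433.3 and 461.8. CG31872 and CG18284 are direct neighbours that share a further probe set. That probe set gave 15.4 to 1097 in Os+bgcn, 3417.8, 2655.5, 2942, 1004.9 and 1654.9 in bgcn, and 660 to 2310 in wild type, and it also met the thresholds. The remaining pairs are CG17350 with CG17549, CG10184 with CG31145, CG5853 with CG4658, and CG9737 with CG18404.

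For 6 member genes, 7 further probe sets that carry the gene alone were measured, and none met the thresholds. Their bgcn means were 13.9 to 89.7, all under the signal limit of 100, and 1 of the 7, for CG31145, had a ratio of at least 2, at 4.02 against 3.21 for the member probe set. For CG2930 the member probe set gave 335 ± 154 in Os+bgcn (SD, n = 6), 2043 ± 661 in bgcn and 807 ± 114 in wild type (SD, n = 5 each), and the other probe set 67.1, 89.7 and 89.2. The 2 probe sets of CG8066 are both members and may share probes, with bgcn means of 2.72 and 2.06 times the Os+bgcn means. A further 5 probe sets are shared with another gene, and 1 of them, that of CG18284 and CG31872, met the thresholds. The probe set shared by CG11893 and CG14354 was highest in wild type. It averaged 7.93 in Os+bgcn, 8.18 in bgcn and 148 in wild type. A value given here therefore holds for the probe set and not for every transcript of the gene.

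The rule compared bgcn with each of the other groups. It did not compare Os+bgcn with wild type, apart from the ceiling that the bgcn mean sets on both. This comparison was tested with limma on log2(signal + 18.8) over all 16 arrays, with a Benjamini-Hochberg adjusted p under 0.05 as the threshold. The spread of each probe set was estimated from all 3 groups. The bgcn arrays, by which the members were chosen, thus also enter the members' errors and p-values. Of all 10422 tested probe sets 71.4% were called, 47.3% higher and 24.2% lower in Os+bgcn, and the median log2 difference was 0.43. Of the members 112 passed the filter on low signals and 42 of these were called (37.5%), 30 higher and 12 lower in Os+bgcn. CG8997, CG17572, CG12374, CG10911 and CG6295 were not tested. The filter counts all arrays: 86 of the 112 passed it on Os+bgcn and wild-type arrays alone, with 29 called higher and 11 lower. The other 26, CG13386 and CG13282 among them, passed only with the bgcn arrays. Of these 26, 1 was called higher and 1, CG13282, lower. With the spread taken from the Os+bgcn and wild-type arrays only, and the same 112 members, 32 were called higher and 12 lower. The median difference of the 112 was 0.15. Since the rule caps both means against the bgcn mean, it leaves out probe sets very high in either group, and nothing is read from the distance of these counts and this median from those of all tested probe sets.

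The split depends on the scaling. With arrays centred on their median, which moves the median of all tested probe sets to 0.20, 16 members were called higher and 18 lower, so that 47.1% of the called members were higher, against 71.4% before, and the median of the members turned to -0.07. After quantile normalization 21 were higher and 13 lower (61.8% higher), with a median of 0.27 for all tested probe sets and 0.02 for the members.

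CG34166 had the largest difference between Os+bgcn and wild type. By its arrays given above no Os+bgcn value was under 279 and no wild-type value over 63.3, and the log2 difference was 3.32 ± 0.54 (SE, limma adjusted p = 1.48e-05). Its bgcn arrays, too, were all above its wild-type arrays.

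CG13117, on 2L, rose by 1.63 ± 0.30 (SE, limma adjusted p = 7.09e-05) in Os+bgcn. Its arrays gave 60.9 to 252.9 in Os+bgcn with a median of 166, against 53, 14, 62.4, 14.9 and 67.1 in wild type, so the groups overlapped at 1 end. CG13364, on X, rose by 1.61 ± 0.26 (SE, limma adjusted p = 1.13e-05), with Os+bgcn arrays at 356 to 796.1 against wild-type arrays at 127.3 to 234.3, which did not overlap. CG17597 and CG8814, both on 2L, rose by 1.5 ± 0.31 and 1.46 ± 0.30 (SE, limma adjusted p = 0.000229 and 0.000198). CG17597 gave 13.6 to 123.4 in Os+bgcn against 7.8, 8.1, 6.4, 15.4 and 6 in wild type, and CG8814 gave 21.4 to 132.7 against 8, 17.9, 17.8, 34.6 and 23.5. With a pseudocount of 1 the differences were 2.59 for CG17597 and 2.10 for CG8814, and with 50 they were 0.92 and 0.99, so their size depends on the pseudocount, while both stayed past the threshold. In both the lowest Os+bgcn array lay within the wild-type range. CG17597 is read by a probe set beside one shared with ScpX, and the shared one did not meet the members' thresholds.

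CG18284 and CG9029, both high on bgcn array 1, had the largest falls in Os+bgcn on the log2(signal + 18.8) scale, with differences of -1.59 ± 0.40 and -1.36 ± 0.44 (SE, limma adjusted p = 0.00146 and 0.00924). CG2930, on X, followed at -1.31 ± 0.23 (SE, limma adjusted p = 4.08e-05), with Os+bgcn arrays at 189 to 617.7 and wild-type arrays at 692.1 to 986.1. CG13282, on 2L, fell by 1.12 ± 0.20 on the log2 scale (SE, limma adjusted p = 4.96e-05). Its Os+bgcn arrays gave 7.4 to 17.3 against 45.9, 54.6, 46.1, 57 and 26.2 in wild type. It passed the filter on low signals only with the bgcn arrays, which the rule chose as high, so nothing is read from its adjusted p. All its Os+bgcn arrays lie under the pseudocount of 18.8, so the size of the fall is set by it: the difference was -2.02 with a pseudocount of 1, where it exceeds the -1.85 of CG18284, and -0.65 with 50. CG14507, on 3R, fell by 0.93 ± 0.30 (SE, limma adjusted p = 0.0101), with Os+bgcn arrays at 14.5 to 159.8 against 129.3 to 185 in wild type. The accessory gland sum given above was also lower in Os+bgcn than in wild type, and its part in these falls was not tested.

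**Figure D5:**
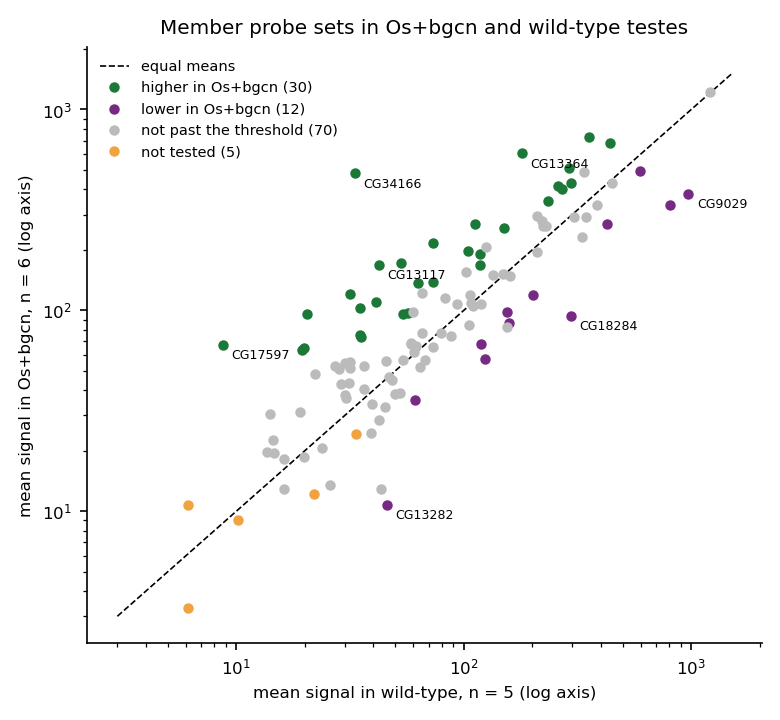
Mean signal of each member in Os+bgcn (vertical, n = 6) against wild type (horizontal, n = 5) on log axes; the dashed line marks equal means. The 30 members called higher in Os+bgcn by limma lie above the line and the 12 called lower lie below it, 70 did not pass the threshold and 5 were not tested, and CG34166 lies farthest above.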

How the data were processed

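RNA of whole testes was hybridised to 16 one-colour Affymetrix DrosGenome1 arrays, 6 of Os+bgcn, 5 of bgcn and 5 of wild type. Each deposited value is the linear signal intensity of a probe set; the submitters' processing notes name MAS5 for it, without a version. The arrays share a 2% trimmed mean close to 149, so a signal is relative to the other transcripts of its array. The number of arrays limits the precision, and detection calls were not used here.

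Genes were named through the platform's annotation table, in which 12442 probe sets carry 1 symbol, 327 several and 1197 none, and were located by gene identifier in RefSeq's table for Release 6 plus ISO1 MT; the files name no genome build, so only chromosome arms and neighbours are given. Group means were taken on the linear signals as deposited. Contrasts of bgcn with either other group chose the members and were not tested.

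Os+bgcn was compared with wild type by limma 3.58.1 in R 4.3.3: log2(signal + 18.8), the 25th percentile of all signals; probe sets above 42.9, the 40th percentile, on at least 5 arrays; 1 coefficient per group over all 16 arrays; moderated errors with an intensity trend; Benjamini-Hochberg adjustment over the 10422 tested probe sets. The fit was tested on simulated data. Errors are SD for signals and SE for log2 differences. Python 3.11.15, pandas 2.3.3 and matplotlib 3.10.9 were used for the rest.

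Named members are the 8 with the highest bgcn mean, the 8 with the largest ratio to the higher other mean, the 5 called with the largest difference in each direction between Os+bgcn and wild type, those next to a limit of the rule, those within 10 kb of another member, and those with several probe sets. CG4363, CG17633, CG18180, CG3868, CG10472, CG6295 and CG17572 were named after their values were seen, as were the groupings by bgcn array and the genes cited beside them. The members and the marker lists were chosen with earlier results of these data known. Alternatives were another scaling, other averages and limits for the rule, another pseudocount, no filter, no trend, only the 2 groups compared, a replicate block, each array left out in turn, and, added after seeing the data, bgcn arrays 1 and 2 or 4 and 5 left out.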

Additional observations from a re-analysis of the deposited data

Results flagged for a closer look

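In 13 cases a named member had 1 array far from the rest of its group: the gap to the nearest array was above Dixon's 95% critical value for the size of the group. Over all members 29 of 351 groups (8.26%) had such an array, 4 in Os+bgcn, 20 in bgcn and 5 in wild type, where chance gives about 1 in 20. The rule itself favours a high bgcn array, since it raises the bgcn mean, so nothing is read from the count in bgcn; in the other groups 9 of 234 (3.85%) had such an array. Of the 29, 8 are bgcn array 4.

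In bgcn, array 4 stood above the other arrays in CG10911 (1299.7, others 8.6 to 277.2), CG8997 (459.2, others 2 to 84.5), CG7916 (433.3, others 30.3 to 122) and CG7953 (461.8, others 40.9 to 135.1). Array 1 stood above in CG2930 (3204.9, others 1563 to 1875), CG10513 (1367.2, others 748.1 to 912.6) and a probe set of CG8066 (379.6, others 127 to 189.6). Array 3 stood above in CG13386 (346.2, others 91.3 to 163.6) and array 5 in CG17597 (254.9, others 90.8 to 127.1).

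In Os+bgcn, array 5 stood above in CG5160 (59.8, others 6.2 to 16.8) and array 1 in CG4950 (60.5, others 8 to 25). In wild type, array 5 stood above in CG5160 (50, others 5.2 to 9.2) and array 4 in CG17597 (15.4, others 6 to 8.1).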

How the results depend on the processing

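The number of members moved with the limits of the rule: 71 with a signal minimum of 200, 214 with a ratio of at least 1.5 and 56 with a ratio of at least 3, against 117. Leaving out 1 array at a time gave 114 to 122 members, and 75 to 81 with no overlap. Group medians in place of means gave 103, of which 88 are among the 117, geometric means 107 (100 shared), quantile normalization 115 (108 shared) and arrays scaled to the same median 105 (105 shared).

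In the comparison of Os+bgcn with wild type, the members called higher dropped to 16, against 30, with arrays centred on their median; the median shift of all probe sets given in the report moves with that setting. Leaving out 1 array at a time gave 6534 to 7533 called probe sets, 23 to 36 members higher and 10 to 13 lower. The 10 members whose differences are given kept their direction and their side of the threshold in all 26 alternatives. The replicate numbers were not used to pair the samples. The deviations of same-numbered Os+bgcn and wild-type arrays correlated at -0.0392 to 0.0492. For bgcn and Os+bgcn arrays the correlations were -0.107 to 0.201, highest for replicate 1, and for bgcn and wild-type arrays -0.0897 to 0.0514. A fit with a replicate block called 7308 probe sets, 37 members higher and 10 lower. Signals near 18.8 and below limit the ratios, as do single bgcn arrays: 35 of the 117 members were lost in at least 1 of the choices without a bgcn array. The replicates may share sources of spread that the labels do not give.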
